A study of Glycine max with 26 samples.

Results

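Genes of the thylakoid light reactions were followed in soybean seeds over 48 h of constant light. They were the 5 genes whose symbol in the platform annotation is ELIP, CAB3, PSAD, ATPC or LOC547819, the last called LHCP here after its synonym. All probe sets that carry only one of these symbols were taken, which gave 11 of the 16383 probe sets of the deposited table, for 5 of the 4099 genes it names by a single symbol. Of these, 6 belong to light harvesting (ELIP, CAB3, LHCP), 4 to photosystem I (PSAD) and 1 to the ATP synthase (ATPC).

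The thylakoid membrane of the chloroplast holds the complexes that turn light into chemical energy. Chlorophyll a/b-binding proteins gather light for the photosystems, electron flow through the photosystems pumps protons, and the ATP synthase uses the proton gradient to make ATP. Seeds of soybean are green while they fill and contain chloroplasts, and in leaves of many plants genes for chlorophyll a/b-binding proteins are known to be controlled by the circadian clock. CAB3 and LHCP are named for such binding proteins. ELIP is named for an early light-inducible protein, a relative of them that is associated with protection from excess light. PSAD is named for subunit D of photosystem I, where ferredoxin docks, and ATPC for subunit gamma of the ATP synthase of chloroplasts, the turning shaft of the enzyme.

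All samples were of the genotype Williams 82, with no mutant and no second treatment. Plants were entrained at 25 °C to days with 12 h of light and nights of 12 h, and constant light began at subjective dawn. Whole seeds with their seed coats were taken at 5 weeks after flowering, at 13 times from 24 to 72 h in constant light, every 4 h. The times of 24, 48 and 72 h are subjective dawn, and 36 and 60 h are subjective dusk. Days, nights and cycles are counted here from 24 h, the first time sampled. Each time had 2 replicates, and each replicate was a pool of 8 seeds from 3 plants, so that values describe the average over embryo, endosperm remnant and seed coat. The circadian question put by the design is whether transcript levels oscillate when light no longer changes. In such pools, fewer cells of a type and less RNA per cell cannot be told apart.

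Signals are log2 values, so that a difference of 1 is a doubling. Levels of different probe sets were not read as relative amounts of transcript. The 26 arrays had median signals of 6.08 to 6.48. They fell into 13 arrays with a lowest signal of 1.54 to 2.04 and 13 with one of 2.4 to 3.02, called low-floor and high-floor arrays here. Each time held 1 array of each kind. Probe sets with a mean signal above 4 were tested, 11481 in all. The tissue label was checked with seed storage genes, of which 17 of 19 probe sets passed this filter. Their mean signal lay between 13.54 and 13.81 on all 26 arrays. Besides glycinins and conglycinins, that list held KTI1, KTI3, BBI, BBI-2, D-II and P34. Its pattern also took in CGS2, which is no storage protein.

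Of the 11 light-reaction probe sets, 8 passed the filter. The CAB3 probe set ending in plain _at had a mean signal of 2.33 and lay within 0.5 log2 of the lowest signal of the array on 24 of 26 arrays. The PSAD probe sets ending in _x_at and plain _at had means of 2.3 and 2.24 and lay that close to the floor on 26 of 26 arrays. These probe sets gave no usable level and no test, although other probe sets of the same genes were bright. Among the 8 that passed, the ATPC probe set alone has an ID with the plain ending _at. By the array maker's convention, the endings _a_at, _s_at and _x_at of the others mark probes shared by transcripts of a gene, shared by several genes, or open to cross-hybridisation. LHCP and CAB3 are synonyms of a further locus too (LOC100805310), so signals of this family may mix several chlorophyll a/b-binding genes.

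Across the 8 tested probe sets, the fitted 24 h peak fell between 19.4 and 20.1 h after subjective dawn, late in the subjective night. The highest time mean of the brightest probe set came earlier for the light-harvesting genes. It lay at 16 h after subjective dawn for ELIP, CAB3 and LHCP, and at 20 h for PSAD and ATPC. The daily change was called for ELIP, for 1 of 2 LHCP probe sets, for 1 of 2 PSAD probe sets and for ATPC, and for neither CAB3 probe set. From trough to peak the fitted change of the called probe sets was 2.09-fold for LHCP, 2-fold for ELIP, 1.78-fold for ATPC, and 1.22-fold for PSAD. The test was a limma F test of the cosine and sine terms for a period of 24 h, fitted on all 26 arrays beside a straight line in time, with Benjamini-Hochberg adjustment over the 11481 probe sets and a threshold of 0.05. It called 138 probe sets of the table (1.2%), against 4 of these 8. At an unadjusted p under 0.05 it took 8 of 8, against 10.3% of the table. The 8 probe sets belong to 5 genes, so here and in later counts they are not 8 separate observations. The median amplitude, the distance from the fitted mean to the peak, was 0.08 log2 over all tested probe sets and 0.33 over the 138 called. A peak between 14 and 22 h was fitted for 85.5% of the 138 and for 25.9% of all tested, so most called probe sets had a fitted peak in that window.

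**Figure D1:**
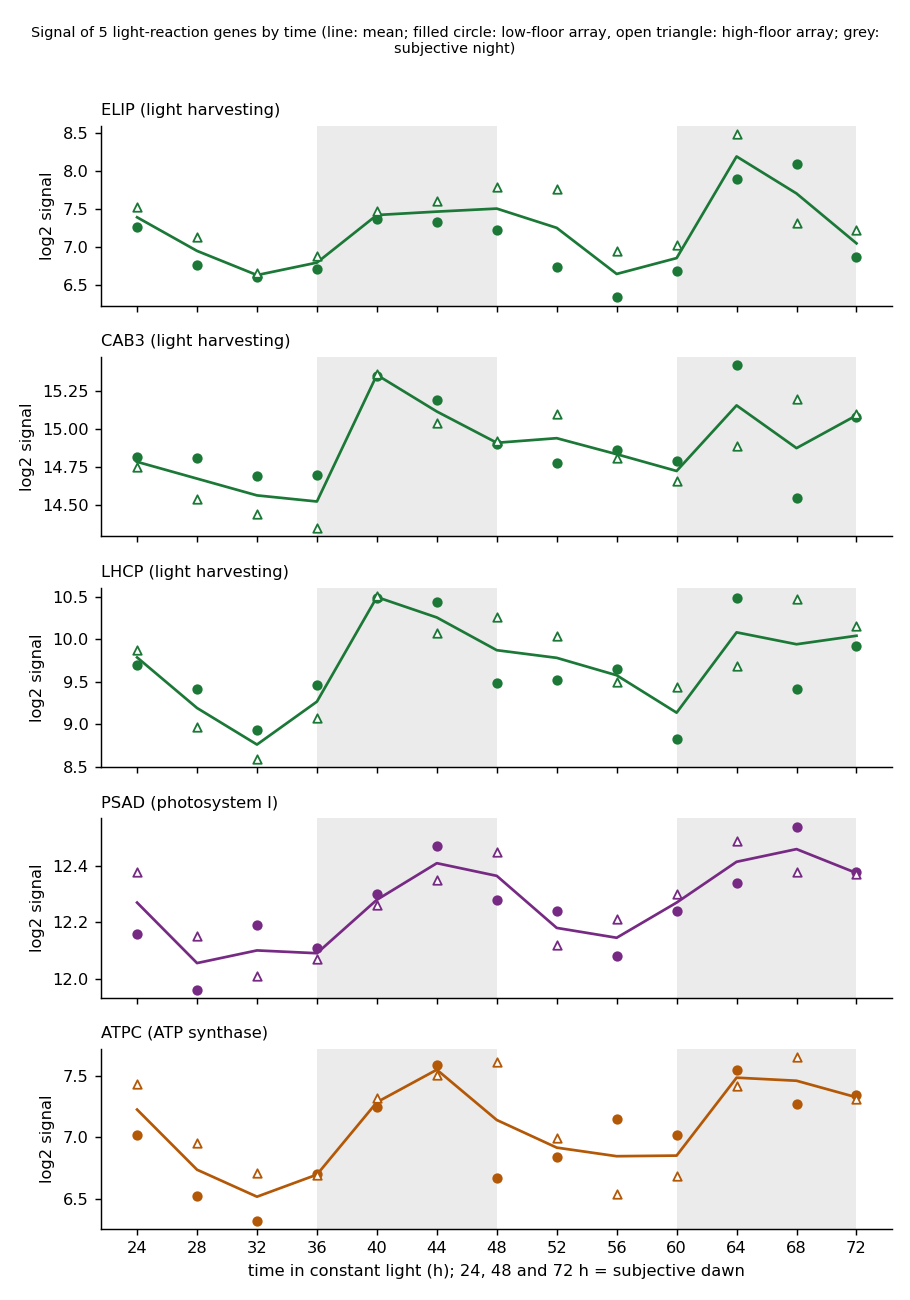
Log2 signal (vertical axes, each with its own range) of the brightest probe set of each gene against time in constant light (h), with filled circles for low-floor arrays, open triangles for high-floor arrays, a line through the mean of the 2 arrays of a time and grey for subjective night. All 5 lines are higher at 40, 44, 64 and 68 h than at 32 and 56 h, subjective midday, and replicates of ELIP, CAB3 and LHCP stand apart at 64 and 68 h.

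Among the light-harvesting genes, ELIP changed over the day with an amplitude of 0.50 ± 0.11 log2 (SE) and a peak at 19.5 ± 0.8 h (limma adjusted p = 0.043). In the first subjective day its only probe set, ending in _a_at, read 7.26 and 7.52 at 24 h, 6.76 and 7.13 at 28 h, and 6.60 and 6.65 at 32 h. It then read 6.70 and 6.88 at 36 h, 7.37 and 7.47 at 40 h, 7.33 and 7.60 at 44 h, and 7.22 and 7.79 at 48 h. Both arrays of 32 h were therefore below both arrays of every time from 40 to 48 h.

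In the second cycle ELIP read 6.73 and 7.77 at 52 h, 6.33 and 6.95 at 56 h, and 6.68 and 7.02 at 60 h. The following times gave 8.49 and 7.90 at 64 h, 8.10 and 7.31 at 68 h, and 7.22 and 6.87 at 72 h. The 2 arrays of 64 h were among the 3 brightest of all 26 arrays, and the replicates of 52 h differed by 1.04. Ordered by their means, the times ran from 64 h (8.20) to 32 h (6.63), a difference of 1.57 or 2.97-fold. Only the step from 64 to 68 h in that order, of the 12 steps between neighbours, exceeded the spread within times of 0.36 (SD).

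LHCP changed over the day by a similar amount. Its probe set ending in _x_at had an amplitude of 0.53 ± 0.12 log2 and a peak at 19.8 ± 0.8 h (limma adjusted p = 0.0409). In the first cycle it read 9.70 and 9.87 at 24 h, 9.41 and 8.97 at 28 h, 8.93 and 8.59 at 32 h, and 9.46 and 9.07 at 36 h. At 40 h it read 10.48 and 10.51, at 44 h 10.44 and 10.07, and at 48 h 9.48 and 10.26. Between subjective dusk and 40 h all 4 values separated cleanly, by more than 1 log2 from the higher array of 36 h to the lower of 40 h.

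In the second cycle LHCP read 9.52 and 10.04 at 52 h, 9.65 and 9.50 at 56 h, and 8.83 and 9.44 at 60 h. It then read 9.68 and 10.48 at 64 h, 9.41 and 10.47 at 68 h, and 10.16 and 9.92 at 72 h. The replicates of 64 and 68 h lay far apart, replicate 2 being the brighter at both, whereas for ELIP replicate 1 was the brighter at both. The time means ran from 40 h (10.50) to 32 h (8.76), a difference of 1.74 or 3.33-fold, and 0 of the 12 steps between neighbours in that order exceeded the spread within times of 0.38. The second LHCP probe set, ending in _a_at, correlated with the first at r = 0.98 over the 26 arrays. Its amplitude was 0.56 ± 0.13 with its peak at 20 ± 0.8 h, and its adjusted p of 0.0531 lay just past the threshold.

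CAB3 had a bright signal and no called rhythm. The probe set ending in _s_at ranged from 14.35 to 15.42, in a table whose highest value was 16.79. At 24 h it read 14.82 and 14.75, at 28 h 14.81 and 14.54, at 32 h 14.69 and 14.44, at 36 h 14.70 and 14.35, and at 40 h 15.35 and 15.36. Both arrays of 40 h were above all arrays of the 4 earlier times. At 44 h it read 15.19 and 15.04, at 48 h 14.90 and 14.92, at 52 h 14.78 and 15.10, at 56 h 14.86 and 14.81, and at 60 h 14.79 and 14.66. The last times gave 14.89 and 15.42 at 64 h, 14.55 and 15.20 at 68 h, and 15.10 and 15.08 at 72 h.

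As for LHCP, replicate 2 of CAB3 was the brighter at 64 and 68 h. The amplitude of this probe set was 0.20 ± 0.07 log2, or 1.32-fold between its fitted trough and peak, with a limma adjusted p of 0.37 and an unadjusted p of 0.026. The second probe set, ending in _x_at, ranged from 11.45 to 12.79 and had an amplitude of 0.26 ± 0.07 (adjusted p = 0.188). The fitted peaks were 19.4 ± 1.2 and 20.1 ± 1.0 h. Between them the CAB3 probe sets correlated at r = 0.88. The order of times ran from 40 h to 36 h, a difference of 0.83 or 1.78-fold, and 0 of 12 neighbouring steps exceeded the within-time spread of 0.21.

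PSAD, the photosystem I member, had the smallest daily change of the called genes and the tightest replicates. The brighter of its tested probe sets, both ending in _a_at, had an amplitude of 0.15 ± 0.03 log2 and a peak at 19.8 ± 0.8 h (limma adjusted p = 0.0377). It read 12.16 and 12.38 at 24 h, 11.96 and 12.15 at 28 h, 12.19 and 12.01 at 32 h, and 12.11 and 12.07 at 36 h. In the first night it read 12.30 and 12.26 at 40 h and 12.47 and 12.35 at 44 h. At the next dawn, 48 h, it read 12.28 and 12.45. All 6 of these values exceeded every value from 28 to 36 h.

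From 52 to 60 h PSAD read 12.24 and 12.12, then 12.08 and 12.21, then 12.24 and 12.30. At 64 h it read 12.49 and 12.34, at 68 h 12.54 and 12.38, and at 72 h 12.37 and 12.38. Again each value from 64 to 72 h was above each value from 52 to 60 h. The times ran from 68 h to 28 h, a difference of 0.41 or 1.32-fold, with a spread within times of 0.10 and 0 of 12 neighbouring steps above it. The second tested probe set correlated with the first at r = 0.68 and ranged from 9.21 to 10.01. It had the same amplitude, 0.15, with a larger error of 0.06 (adjusted p = 0.483).

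ATPC, the ATP synthase member, gave the smallest p of the 8 probe sets. Its amplitude was 0.42 ± 0.07 log2 and its peak lay at 19.8 ± 0.6 h (n = 26 arrays, limma p = 1.04e-05, adjusted p = 0.00444). It read 7.02 and 7.43 at 24 h, 6.52 and 6.95 at 28 h, 6.32 and 6.71 at 32 h, and 6.70 and 6.69 at 36 h. In the first night it read 7.25 and 7.32 at 40 h and 7.59 and 7.51 at 44 h. At the next dawn, 48 h, it read 6.67 and 7.61. The arrays of 40 and 44 h lay above all those of 28 to 36 h, and the replicates of 48 h differed by 0.94.

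In the second cycle ATPC read 6.84 and 6.99 at 52 h, 7.15 and 6.54 at 56 h, and 7.02 and 6.68 at 60 h. It read 7.42 and 7.55 at 64 h, 7.27 and 7.65 at 68 h, and 7.31 and 7.34 at 72 h. Every array from 64 to 72 h was above every array from 52 to 60 h. The time means ran from 44 h (7.55) to 32 h (6.52), a difference of 1.03 or 2.04-fold, and 0 of 12 neighbouring steps exceeded the within-time spread of 0.28.

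**Figure D2:**
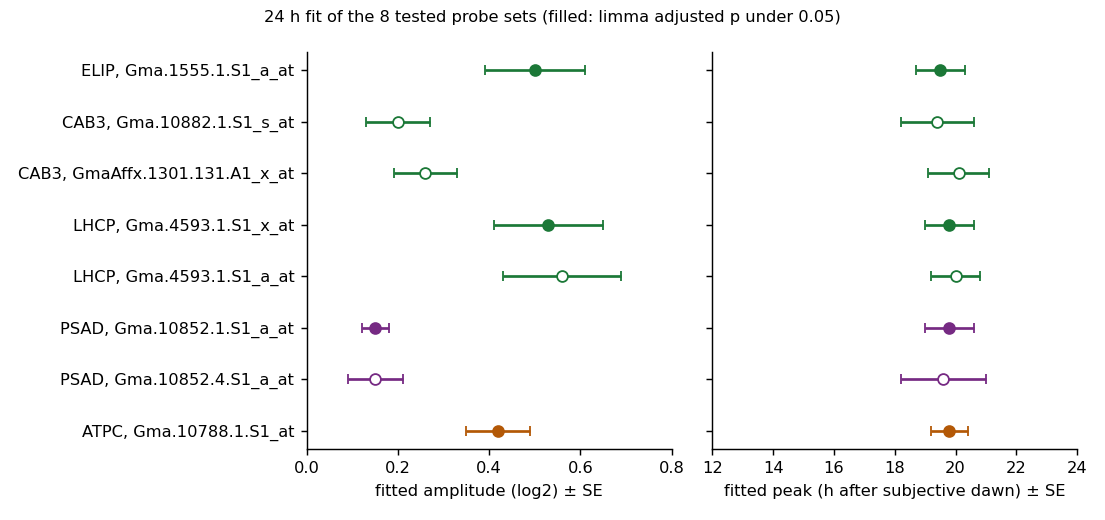
Fitted 24 h amplitude (left, log2) and peak time (right, h after subjective dawn) of the 8 tested probe sets, each with its SE, filled where the limma adjusted p was under 0.05. Peaks sit between 19.4 and 20.1 h, while amplitudes run from 0.15 for PSAD to 0.56 for LHCP.

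How firmly each call stood was seen by leaving out each of the 26 arrays in turn. ATPC was called 26 of 26 times, with an adjusted p of at most 0.0179. The PSAD call was made 14 times, the ELIP call 8 times and the LHCP call 7 times. The brightest CAB3 probe set was called 0 times, with its lowest limma adjusted p, 0.0777, without replicate 1 of 68 h. The CAB3 probe set ending in _x_at was called 1 time, without that same array (limma adjusted p = 0.0394). The adjusted p of LHCP ran from 0.00626 without replicate 1 of 68 h to 0.119 without replicate 1 of 44 h, and that of ELIP from 0.00883 without replicate 2 of 52 h to 0.11 without replicate 1 of 56 h. Amplitudes moved less than these calls. They stayed at 0.45 to 0.57 for ELIP, 0.49 to 0.60 for LHCP, 0.14 to 0.16 for PSAD and 0.39 to 0.47 for ATPC.

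The low-floor and high-floor arrays were also fitted apart, 13 of each. On low-floor arrays the amplitude was 0.64 for ELIP, 0.51 for LHCP, 0.20 for CAB3, 0.15 for PSAD and 0.34 for ATPC, and the limma test called 0 of the 8 probe sets and 0 of the whole table. On high-floor arrays the amplitudes were 0.37, 0.59, 0.24, 0.15 and 0.53 in the same order, and ATPC was the only one of the 8 called (adjusted p = 0.00267). The calls of ELIP, LHCP and PSAD were thus made on neither kind of array alone.

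**Figure D3:**
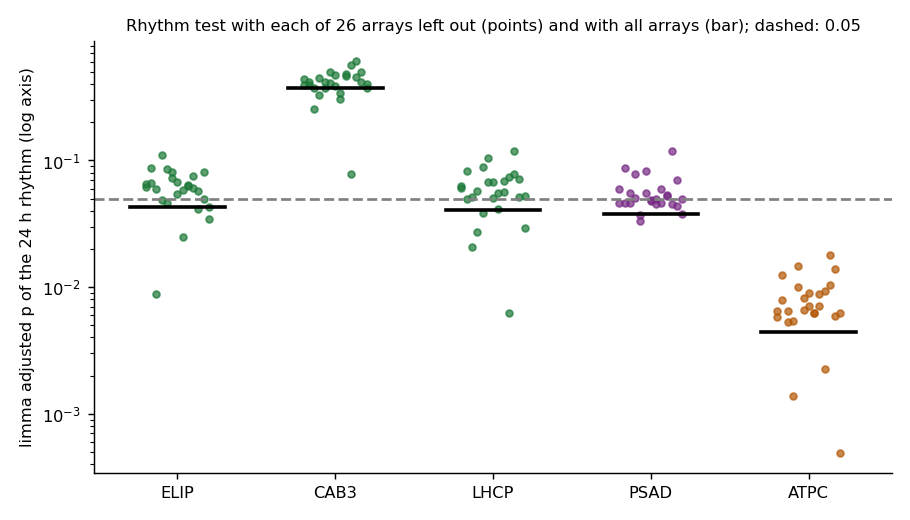
Limma adjusted p of the 24 h rhythm (log axis) for the brightest probe set of each gene with each of the 26 arrays left out (points) and with all arrays (bar), with a dashed line at 0.05. ATPC points all lie below the line, CAB3 points all above it, and those of ELIP, LHCP and PSAD straddle it.

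A contrast without a curve compared late subjective night (44 and 68 h) with subjective midday (32 and 56 h), 4 arrays against 4. All 8 probe sets had the higher mean at night, and none passed the adjusted threshold, against 62 of the table (0.54%). ATPC came closest, with 7.50 ± 0.16 (SD, n = 4) at night and 6.68 ± 0.35 at midday, a difference of 0.82 ± 0.19 (SE) or 1.77-fold (limma adjusted p = 0.0588). For ELIP the means were 7.58 ± 0.37 and 6.63 ± 0.25, a difference of 0.95 ± 0.23 or 1.93-fold (limma adjusted p = 0.0789). In both genes no night array reached down to a midday array. With the floor class as a block, ELIP and ATPC passed this contrast (limma adjusted p = 0.0261 and 0.0416), where the table had 108 calls in place of 62.

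The called PSAD probe set gave 12.43 ± 0.09 at night and 12.12 ± 0.10 at midday, again without overlap, and a difference of 0.31 ± 0.09 (limma adjusted p = 0.174). LHCP gave 10.10 ± 0.50 and 9.17 ± 0.49, a difference of 0.93 ± 0.24 (limma adjusted p = 0.118), and here replicate 1 of 68 h (9.41) fell among the midday arrays. In CAB3 the groups overlapped as well, at 14.99 ± 0.30 and 14.70 ± 0.18. Counted over the 8 probe sets, 4 had no overlap between night and midday, against 2.37% of the table with night above midday on every array. With unadjusted p under 0.05 and the night higher there were 7 of 8, against 4.74% of the table.

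Subjective dawn (24, 48 and 72 h, 6 arrays) and subjective dusk (36 and 60 h, 4 arrays) were compared in the same fit. This contrast called 0 of the 8 probe sets and 0% of the table. The largest difference between dawn and dusk was that of LHCP, 0.79 ± 0.25 log2 for one probe set and 0.70 ± 0.22 for the other, which had no overlap (9.90 ± 0.29 against 9.20 ± 0.30, limma adjusted p = 0.615). CAB3 differed by 0.30 ± 0.13 and 0.39 ± 0.14, ELIP by 0.49 ± 0.21 and ATPC by 0.46 ± 0.17. For PSAD the differences were 0.15 ± 0.08 and 0.13 ± 0.13. An unadjusted p under 0.05 with dawn higher was reached by 6 of 8, against 3.69% of the table.

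The steepest step of the light-harvesting genes lay just after subjective dusk. This comparison, of 40 and 64 h with 36 and 60 h, was chosen after the values were seen. Its sizes, counts and p-values are therefore a description only. LHCP was at 10.29 ± 0.41 after dusk and 9.20 ± 0.30 at dusk (n = 4 each), a difference of 1.09 ± 0.24 or 2.13-fold. ELIP differed by 0.99 ± 0.23 or 1.98-fold, and the brightest CAB3 probe set by 0.63 ± 0.14 or 1.55-fold, beside its difference of 0.29 ± 0.14 between late night and midday. In all 5 light-harvesting probe sets, which belong to 3 genes, the groups did not overlap.

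For ATPC the same step measured 0.61 ± 0.19 or 1.53-fold, without overlap. PSAD differed by 0.17 ± 0.09 and 0.17 ± 0.15, and its groups overlapped in both probe sets. Since these times were chosen from the values, the counts and p-values that follow cannot support a difference. Together 6 of 8 had no overlap across dusk, against 2.84% of the table. An unadjusted p under 0.05 with the higher mean after dusk was also reached by 6 of 8, against 3.87% of the table. None of the 8 passed the adjusted threshold (lowest limma adjusted p = 0.0627, for the LHCP probe set ending in _a_at), against 0.131% of the table. With quantile normalization this comparison passed for ELIP and for both LHCP probe sets (limma adjusted p = 0.0314, 0.0307 and 0.0278), where the table had 112 calls in place of 15.

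A test for any difference between the 13 times called 0 of 8, against 0.0436% of the table, with 6 of 8 at an unadjusted p under 0.05 against 7.49%. No linear trend over the 48 h was called, either for these genes or for the table (0%). The called PSAD probe set had the only unadjusted p under 0.05 of the 8, with a slope of 0.09 ± 0.04 log2 per 24 h (n = 26 arrays, limma p = 0.0202, adjusted p = 0.838), against 5.33% of the table.

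The cycles were compared on the 24 arrays from 24 to 68 h. LHCP had an amplitude of 0.83 ± 0.15 in the first cycle and 0.32 ± 0.15 in the second (n = 24 arrays, limma p = 0.0236, adjusted p = 0.374). The brightest CAB3 probe set had 0.36 and 0.08, each ± 0.09, and ATPC had 0.52 and 0.36, each ± 0.10. ELIP ran the other way, at 0.46 ± 0.14 and 0.63 ± 0.14, and PSAD had 0.17 and 0.16. Fitted peaks of the 8 probe sets spread more by cycle, from 18.6 to 20.3 h in the first and from 19.1 to 21.5 h in the second. That of LHCP lay at 18.9 h and then at 21.5 h. The interaction of rhythm and cycle was called for 0 of 8 and for 0% of the table. It had an unadjusted p under 0.05 for 1 of 8, against 10.3% of the table, so no change from the first to the second cycle was established.

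Light-harvesting, photosystem I and ATP synthase genes were then set against each other in pairs, with the brightest probe set of each gene. The difference of 2 genes was taken on each array, and its 24 h rhythm was tested by permuting the arrays over the times (100000 resamples, adjusted over 10 pairs). This test responds to a difference in amplitude or in peak time, while the intervals given beside it are of the amplitude difference alone. The LHCP amplitude exceeded that of CAB3 by 0.33 log2 (95% interval of CAB3 minus LHCP -0.49 to -0.17, permutation adjusted p = 0.0069). The ATPC amplitude exceeded that of PSAD by 0.27 (interval of PSAD minus ATPC -0.42 to -0.12, permutation adjusted p = 0.0272). These were the only 2 of 10 pairs to pass. In both, the brighter probe set had the smaller amplitude, with mean signals of 14.89 (CAB3) and 9.71 (LHCP), and 12.26 (PSAD) and 7.08 (ATPC). The dimmer tested probe sets of CAB3 (mean 12.22) and PSAD (mean 9.61) had amplitudes of 0.26 and 0.15. Whether amplitudes of probe sets of unlike brightness share a scale was not tested.

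ELIP minus PSAD was 0.36 with an interval of 0.12 to 0.59 (permutation adjusted p = 0.0522), and passed with the floor class as a block (adjusted p = 0.0272). LHCP minus PSAD was 0.39 with an interval of 0.12 to 0.66 (permutation adjusted p = 0.0671). CAB3 minus ATPC was -0.21 with an interval of -0.39 to -0.04 (permutation adjusted p = 0.111), and ELIP minus CAB3 was 0.30 with an interval of 0.00 to 0.59 (permutation adjusted p = 0.216). Among ELIP, LHCP and ATPC the differences were -0.03 to 0.12, with intervals that reached from -0.38 to 0.36. CAB3 minus PSAD was 0.06 with an interval of -0.11 to 0.23. Peak times of the pairs differed by -0.5 to 0.1 h, and their intervals reached from -3.6 to 3.3 h, so shifts of a few hours are not excluded. The intervals are not adjusted for the 10 pairs.

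**Figure D4:**
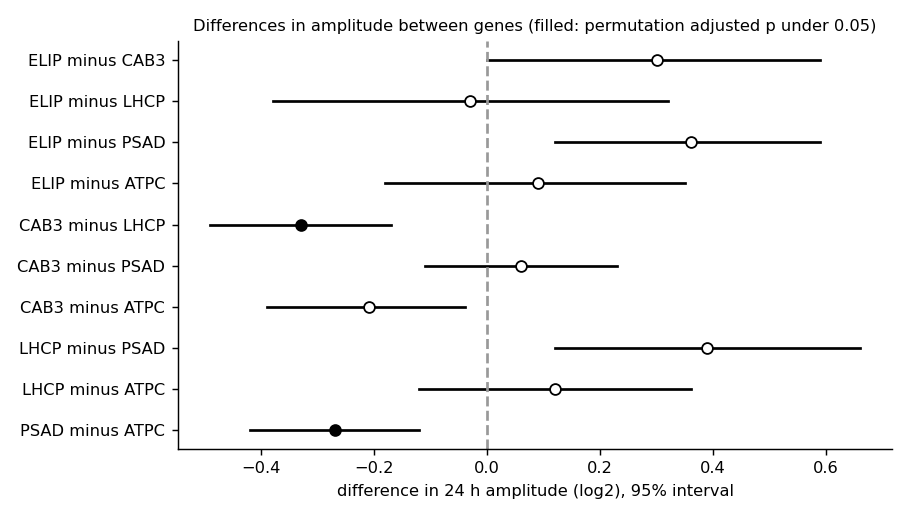
Difference in 24 h amplitude (log2) between the brightest probe sets of each pair of genes, with its 95% interval. Points are filled where the permutation adjusted p of the difference in rhythm, amplitude or peak time, was under 0.05. The filled points are CAB3 minus LHCP at -0.33 and PSAD minus ATPC at -0.27.

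From array to array the closest pair was CAB3 and LHCP, with r = 0.89 and rho = 0.91 over 26 arrays. The permutation p was 1e-05 for both, the smallest that 100000 resamples can give, and 0.0001 after adjustment over 10 pairs. It held at 0.87 on low-floor and 0.93 on high-floor arrays, and at 0.86 without the 2 arrays farthest from the CAB3 median. Since the probe sets of this family may share targets, part of this likeness may be one signal measured by both, which was not tested.

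Over the 10 pairs r ran from 0.36 to 0.89, from 0.27 to 0.87 on low-floor arrays and from 0.51 to 0.93 on high-floor arrays, and rho from 0.43 to 0.91. By r, 8 of 10 pairs passed the permutation test after adjustment, and by rho 10 of 10. The pairs that missed it by r were ELIP with CAB3 (r = 0.36, permutation adjusted p = 0.067) and CAB3 with PSAD (r = 0.39, permutation adjusted p = 0.0534). Without the 2 farthest arrays, r ran from 0.42 to 0.86.

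All these values include the shared course over the day. The differences between the 2 replicates of a time, low-floor minus high-floor array, leave that course out. On these, r was computed without subtracting the mean difference, so a constant offset between floor classes enters it. It ran from -0.43 to 0.80 over 13 times and was below 0 for 4 of 10 pairs. Its exact p came from all combinations of signs over the times. CAB3 and LHCP kept the highest value, 0.80, with the same sign at 11 of 13 times (exact sign-flip p = 0.0176, 0.176 after adjustment), and 0 of 10 pairs passed. ELIP and CAB3 had -0.41 (exact sign-flip p = 0.261).

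Genes with the most similar course over the 26 arrays were looked up among probe sets with a name, as a description. For CAB3 they were the LHCP probe sets (r = 0.93 and 0.89) and SCB1 (0.87), the gene of a seed coat BURP-domain protein. For LHCP they were CAB3 (0.94), SCB1 (0.93) and GSTU3 (0.89), named for a glutathione transferase. ATPC was nearest to RCA14 (0.88), a Rubisco activase, to FBP (0.87), named for fructose-bisphosphatase, and to CPX (0.86). PSAD was nearest to 2 probe sets of RCA14 (0.76 and 0.71) and to ATPC (0.71). ELIP was nearest to EN2 (0.78), to HPS (0.77), the hydrophobic protein of the seed surface, and to RCA14 (0.73). Probe sets without such a name could be closer. Of 11479 probe sets compared with PSAD, 37 had a higher r than its first named one. That number was 8 for ATPC, 3 for ELIP, 3 for LHCP and 0 for CAB3.

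Because seeds ripen and pools can differ in stage and in tissue, the marker lists were read beside these results. The mean signal of 33 seed maturation probe sets ran from 11.29 to 12.38 over the arrays. Its medians were 11.69 in late night and 11.95 at midday, and 11.52 after dusk (11.33 to 12.01) and 12.08 at dusk (11.98 to 12.16). None of the 33 was called rhythmic, against 1.2% of the table, so the lack of a call among so few says little. An unadjusted p under 0.05 was reached by 1 of the 33, against 10.3% of the table. Against this mean, LHCP had r = -0.74 and rho = -0.81, and CAB3 r = -0.72 and rho = -0.79 (permutation adjusted p over 5 relations, 0.00015 for each r and 2.5e-05 for each rho). The r of both was -0.68 on low-floor arrays, and on high-floor arrays it was -0.79 for LHCP and -0.83 for CAB3. Leaving out the 2 farthest arrays gave -0.71 for each. Arrays were permuted singly, so these p-values do not separate a shared course over the day from a relation between pools.

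ATPC had r = -0.46 and rho = -0.47 (permutation adjusted p = 0.0316 and 0.027), and r = -0.35 without the 2 farthest arrays. For ELIP r was -0.20 (adjusted p = 0.396) and rho -0.35, and for PSAD r was -0.14 (adjusted p = 0.508) and rho -0.17. On replicate differences, computed as above, the r of LHCP was -0.66 (exact sign-flip p = 0.0769) and that of CAB3 -0.61 (exact sign-flip p = 0.146). With the maturation mean as a covariate, the LHCP amplitude was 0.43 (limma adjusted p = 0.00439), that of ATPC 0.38 (0.00435), that of CAB3 0.15 and that of ELIP 0.50 (limma adjusted p = 0.0544). The ELIP call therefore ended by a small margin under that covariate while its amplitude stayed the same.

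**Figure D5:**
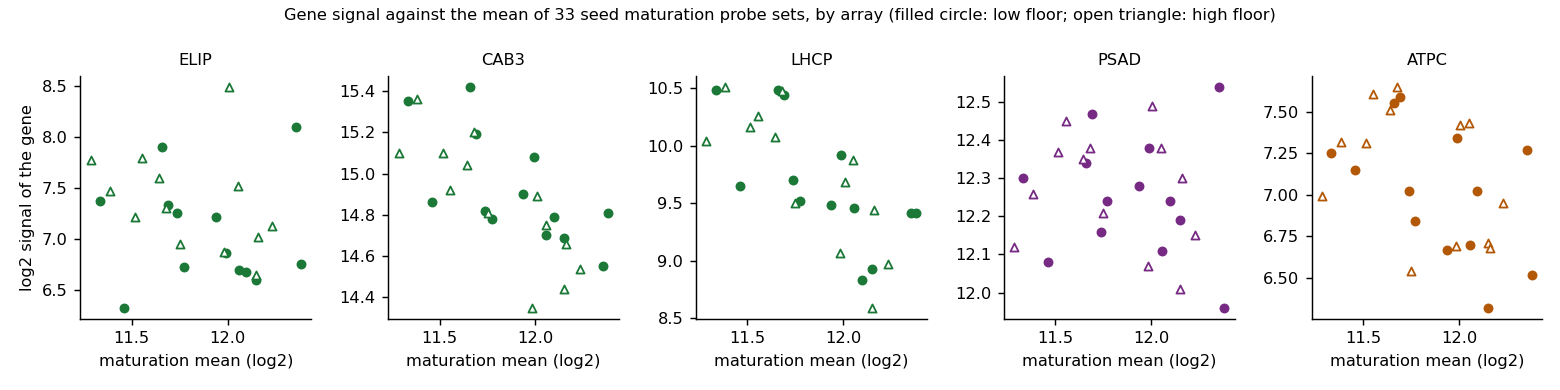
Log2 signal of the brightest probe set of each gene (vertical axes) against the mean log2 signal of 33 seed maturation probe sets (horizontal axes), 1 point per array, filled circles for low-floor and open triangles for high-floor arrays. CAB3 and LHCP are lower on arrays with a higher maturation mean (r = -0.72 and -0.74), and ELIP and PSAD show little relation (r = -0.20 and -0.14).

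Markers of other tissues were read over the same groups of arrays. The 2 seed coat markers, HPS and Ep, had a mean of 13.74 to 14.10 in late night and 13.57 to 13.82 at midday, and of 13.78 to 14.42 after dusk and 13.41 to 13.85 at dusk. Of 3 vegetative or pod wall probe sets, VSP27 was below the filter, and the mean of the other two was 4.81 to 6.90 in late night, 4.96 to 5.48 at midday, 5.85 to 7.11 after dusk and 5.09 to 5.44 at dusk. These were VSPA, a vegetative storage protein, and LOXB1, a lipoxygenase with the synonym VSP94. LOXB1 had an amplitude of 0.83 ± 0.22 log2 with its peak at 19.9 ± 1 h (limma adjusted p = 0.145), and VSPA one of 0.43 ± 0.12 with its peak at 19.1 ± 0.9 h (limma adjusted p = 0.164). The HPS amplitude was 0.19 ± 0.07, with its peak at 20.1 ± 1.3 h (limma adjusted p = 0.422). None of the 4 tested seed coat and vegetative probe sets was called, against 1.2% of the table. An unadjusted p under 0.05 was reached by 3 of 4, against 10.3% of the table. The fitted peaks of these 3 lay between 19.1 and 20.1 h, close to those of the light-reaction genes. The mean of the seed storage markers stayed between 13.54 and 13.81 in all these groups. It hides BBI-2, whose late night minus midday difference was -1.33 ± 0.42 (SE, limma adjusted p = 0.245), while 13 of the 17 were higher at night. The part of seed coat, pod wall or stage differences between pools in the light-reaction results was not tested beyond the covariate above.

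Other photosynthesis genes were taken from lists matched by symbol. The light-harvesting, photosystem I and ATP synthase lists held no probe set beyond the 11 described. No photosystem II gene was matched, and the only electron transport match, PC7, was below the filter. In the carbon fixation list 5 of 9 tested probe sets were called, against 1.2% of the table. They were 3 of RCA14, 1 of RCAALPHA and 1 of FBP. The first of these RCA14 probe sets by p had an amplitude of 0.30 ± 0.05 and a peak at 19.8 ± 0.6 h (limma adjusted p = 0.00615), and FBP had 0.34 ± 0.06 and 20.5 ± 0.7 h (limma adjusted p = 0.0124). The 4 probe sets without a call belong to GAPC1, named for the cytosolic enzyme of glycolysis, and to sbp and SBP2, which share only their letters with a Calvin cycle enzyme.

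The list for chlorophyll synthesis and breakdown gave no call among 6 tested probe sets, against 1.2% of the table. An unadjusted p under 0.05 was reached by 2 of the 6, against 10.3% of the table. Within the list, GSA1 came nearest (limma adjusted p = 0.0543), with an amplitude of 0.18 ± 0.04 and its peak at 20 ± 0.8 h. GSA1 is named for the enzyme that makes aminolevulinate, the precursor of chlorophyll. CPX, named above beside ATPC, was not matched by this list. Its probe set had an unadjusted p under 0.05 and no call. Its ID shares a stem with that of the ELIP probe set, and whether they share signal was not tested. The median amplitude of that list was 0.10, against 0.50 for the 5 tested light-harvesting probe sets, 0.27 for carbon fixation, 0.63 for the 2 vegetative or pod wall markers and 0.08 for all tested.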

How the data were processed

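Total RNA of whole seeds was hybridised as biotin-labelled cRNA to single-colour oligonucleotide arrays, per the labels' protocols. The deposited log2 signals were made by the authors with GCRMA, per the submitters' processing notes. No source used here gives its version, and the range of the values showed the scale to be log2. The table is in ID order and may lack later IDs, and other probe sets were not analysed here. Symbols came from the platform annotation, and 4989 of the 5002 probe sets with 1 symbol matched a gene table from RefSeq (assembly Glycine_max_v4.0), which served for names only.

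Probe sets whose mean log2 signal exceeded 4 (11481, 70.1%) were fitted with limma 3.58.1 in R 4.3.3 (lmFit and eBayes), with Benjamini-Hochberg adjustment over all of them. Contrasts came from a fit of the 13 times. Pairs of genes were tested by permutation, and on replicate differences by sign flips (Python 3.11.15, NumPy 2.4.6), two-sided, on the probe set with the highest mean. The steps were tested on simulated data. Their precision is limited by the number of arrays, 2 per time.

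Whether both replicates of a time share plants is not stated, so every p-value reflects only how far these samples spread, which may be technical. Replicates of a time correlated at r of 0.977 to 0.994. The genes and lists were chosen with earlier results of these data known, and so were the times of the night and midday contrast. Named genes were all probe sets of the 5 genes, up to 3 called members of each pathway list or else the member with the smallest p, and the 3 named probe sets of other genes with the highest r to each gene. RCAALPHA and the members of lists without a call were named after their values were seen. Alternatives were other filters, normalization, periods, harmonics, blocks, covariates and left-out arrays. The planned search of promoters was not run, and no sequence or coordinate was used.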

Additional observations from a re-analysis of the deposited data

How the results depend on the processing

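The count of rhythm calls among the 8 probe sets, 4 with all arrays, was 0 with 24 and 12 h harmonics together and 0 on low-floor arrays alone. It was 1 on high-floor arrays alone, 1 without a filter on low signal, and 1 without both arrays of 40 h. With periods of 22 and 26 h it was 2 each, and 2 without both arrays of 64 h. It was 5 with quantile normalization and 5 without linear time. Leaving out single arrays gave 1 to 5. Leaving out both arrays of a time was chosen after seeing the data, as was the dusk comparison. Over the whole table, in place of 138 calls there were 28 with harmonics, 0 on low-floor arrays, 42 on high-floor arrays and 76 without the filter. At periods of 22 and 26 h the table had 64 and 112 calls. It had 98 without both arrays of 64 h and 61 without both arrays of 40 h. With quantile normalization it had 232, without linear time 258, and without single arrays 72 to 199. For night against midday the count was 0. It became 2 with the floor class as a block and 2 with quantile normalization (ELIP and ATPC each time), where the table had 108 and 137 calls in place of 62, and 0 to 2 without single arrays. For the dusk comparison it became 2 with the floor block and 3 with quantile normalization, where the table had 73 and 112 calls in place of 15, and 0 to 3 without single arrays, with 3 without either array of 68 h. The correlation count fell from 8 to 0 on replicate differences. Fits on 13 arrays used fewer samples, and the fit without a filter tested more probe sets. For the other settings the cause was not tested. No contrast of the 8 probe sets changed direction under the blocks, quantile normalization, the fit without a filter or single arrays left out; an amplitude has no direction.

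The samples were not treated as paired, since no label ties the replicate numbers to a shared source and deviations of same-numbered arrays correlated above 0.1 for only 34 of 78 pairs of times (-0.38 to 0.61, median 0.02). For the floor class it was 45 of 78 (-0.34 to 0.61, median 0.14). In the data, however, 22 of 26 arrays were closest to their own number, a hint that the numbers may share something. The 2 arrays of a time mirror each other in this count, so each time entered it 2 times. The low-floor array was replicate 1 at 11 times and replicate 2 at 2, so replicate number and floor class largely overlap. The replicate and floor blocks are therefore not independent checks, and what the numbers share was not tested. With the replicate block the rhythm count stayed 4, the whole table had 144 calls, and the test of any time called 12 in place of 5 over the table (35 with the floor block, 79 with quantile normalization). Pairs that differed in rhythm were 3 in place of 2 with the replicate block, ELIP and PSAD being added. Signals near the floor are compressed, so the untested CAB3 and PSAD probe sets bear no reading.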
